A study of Drosophila melanogaster and Drosophila simulans with 122 samples.

Results

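Round spermatids of D. simulans that lack miR-983 were compared with round spermatids that carry it, by RNA-seq of single cysts. There were 11 such cysts among the 122 libraries of the series, 6 from D. sim KO and 5 from D. sim WT, and they were chosen by the line and stage in their labels. The KO line carries a deletion and mutation in the region of dsi-miR-983a-5p, and the WT line is its control. Both lines were made in earlier work, and each genotype is a single line, so that the loss of miR-983 and other differences between the lines cannot be told apart. All cysts came from mated males 2 to 3 days after eclosion and were staged by eye under the microscope. Round spermatid (rST) cysts were told from other stages by the shape, the size (14 to 16 µm) and the number (above 32) of their cells. Each cyst was lysed alone and its cDNA amplified by PCR before sequencing, and how the cysts were shared among flies was not given, so p-values measure the spread between these cysts. Values in D. sim spermatogonia (SG, 6 KO and 6 WT cysts), late primary spermatocytes (pSC, 5 and 5), elongating spermatids (eST, 6 and 6) and whole testes of males 3 to 5 days old (3 and 3 pools) were used to see where the same genes differ elsewhere.

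In a fly testis, the germ cells descended from a single founder stay joined in a cyst wrapped by somatic cyst cells and develop in step. Most genes that spermatids use are transcribed before meiosis, in primary spermatocytes, and the transcripts are kept for use after it. A miRNA guides Argonaute to transcripts that pair with its seed, the short run near its 5′ end, and so lowers the level or translation of those transcripts. MiR-983 is X-linked and expressed mainly in the testis.

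The miRNA itself was not measured by these libraries, which hold reads of long transcripts, and the gene identifiers of the D. simulans count tables come with no names, so that its deletion could not be read from them. The study's forward primers for measuring the mature 5p arm of each species by qPCR are shown here in place of the miRNA. The capitals mark the run of 8 bases at the 3′ end that both primers share. The lower case stretches before it differ between the species, and the whole primers are 21 and 20 bases long. Both open with the same few bases, which the D. simulans precursor listed by the study lacks at that place. The primers are therefore not the miRNA sequence itself.
dsi-miR-983-5p: ggcgagtaataccTTTCGAAC
dme-miR-983-5p: ggcgataatacgTTTCGAAC

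The libraries were deep and alike. Counts on genes summed to between 17747219 and 23915314 per cyst, and 12739 to 13260 genes had at least 1 read. The 10 most abundant genes took 5.01% to 5.66% of the counts. Every cyst was nearer to the mean of the other rST cysts (Pearson r of 0.985 to 0.991 across genes) than to the means of pSC (0.962 to 0.98), eST (0.926 to 0.946) or SG (0.751 to 0.787). Spearman's rho across genes was 0.972 to 0.984 between KO cysts, 0.967 to 0.983 between WT cysts and 0.945 to 0.955 between a KO and a WT cyst. Genes are not independent replicates, and these correlations are given as a description.

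Round spermatids of the KO line differed from those of the WT line in 1530 genes. Genes were tested where the mean of either genotype exceeded 5 normalized counts. Of these 11962 genes, 612 rose and 918 fell in KO cysts at an FDR under 0.05 and an absolute log2 fold change (KO over WT) above 1 by edgeR's quasi-likelihood test with Benjamini-Hochberg adjustment. These are 12.8% of the genes tested, 5.12% risen and 7.67% fallen. The median log2 fold change was 2.05 among the genes that rose and -1.96 among those that fell, against -0.05 over all genes tested. Changes above 4 on the log2 scale were found in 95 genes that rose and 157 that fell. Of the genes that rose, 486 (79.4%) had every KO cyst above every WT cyst, and of those that fell, 653 (71.1%) had every KO cyst below every WT cyst, while among all genes tested such a separation was found in 16.9% (7.99% with KO above and 8.95% with KO below).

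Abundant transcripts were called least often. When the genes tested were split into 5 groups of equal size by level, the share called was 17.2% in the lowest group, 18.6% in the next, 15.4% in the middle, 10.2% in the one above and 2.51% in the highest (above 1660 normalized counts). The median level was 71.7 normalized counts for genes that rose and 58.2 for genes that fell, against 157 for all genes tested. Counting ignored the strand, so a gene that overlaps another is uncertain, yet the share called was 13.3% of 5063 overlapping genes and 12.5% of 6899 others. Leaving out any 1 cyst left between 1424 and 1610 genes called. A single fit over all 45 D. sim cysts, whose other stages enter the estimate of the spread, called 858 genes (333 risen and 525 fallen), 841 of them among the 1530.

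Some genes were read in the cysts of 1 genotype alone. No read of 20 genes that fell was found in the 6 KO cysts, while their means in WT cysts were 6.42 to 166 normalized counts, at least 12.7-fold to at least 327-fold lower in KO when the KO group is set to 3 counts in all. Conversely, 18 genes that rose had means of 5.33 to 421 normalized counts in KO cysts and no read in the 5 WT cysts, at least 9.01-fold to at least 712-fold higher in KO. They are among the 25 tested genes without a KO read and the 21 without a WT read. Such genes entered the test only through the other genotype, so their direction at rST was fixed in advance. Of the 20 that fell, 14 were also called lower at pSC, 7 at eST and 8 in testes, where 8.85%, 2.66% and 5.81% of all genes tested fell. Of the 18 that rose, 14 were also called higher at pSC and 5 at eST, and 7 of the 8 that could be tested in testes were called higher there, where 4.39%, 1.97% and 4.43% of all genes tested rose.

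The largest rise was in FBgn0195978, a gene without a name in the files at X 9603245 to 9605080 of the FlyBase D. simulans reference that the study mapped to. Its normalized counts in KO cysts were 276 at the lowest, 434 at the median and 513 at the highest, and 0 in each of the 5 WT cysts. The groups did not overlap, and the gene was at least 712-fold higher in KO (adjusted p = 6.3e-08 by edgeR's quasi-likelihood test). It was also absent or nearly so from the WT line outside rST, with 14.4 ± 1.42 FPKM in KO testes and 0.00718 ± 0.0124 FPKM in WT testes (SD, n = 3 each). FBgn0191641 (3R 6813997 to 6814730), which overlaps another gene, showed the same pattern in cysts. It had 88.9, 246 and 354 normalized counts at the lowest, median and highest KO cyst and 0 in every WT cyst, at least 411-fold higher in KO (adjusted p = 4.3e-06). In testes it was listed at 0 FPKM in all 6 libraries, so that its presence was seen in KO cysts and not in KO testes.

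Among the 10 genes with the largest falls and no overlap between KO and WT cysts, the one with the highest level in WT cysts was FBgn0270372 (2L 5197108 to 5198272). KO cysts held 0, 1.6 and 5.34 normalized counts at the lowest, median and highest, and the 5 WT cysts held 1730, 1750, 1980, 1790 and 2430. No KO cyst came near a WT cyst, and the log2 fold change was -9.82 ± 0.35 (SE, adjusted p = 4.2e-10). Testes of both lines expressed this gene, at 32.3 ± 2.43 FPKM in KO and 42.5 ± 2.52 FPKM in WT (SD, n = 3 each), so that the KO line held almost none of it in picked rST cysts but kept it in testes. FBgn0193574 (2L 11235565 to 11235886, overlapping another gene) had a larger fitted fall that rests on a single cyst. It had no read in the 6 KO cysts, and 2.87, 1.81, 816, 6.12 and 1.2 normalized counts in the WT cysts. Its adjusted p of 0.048 rose to between 0.052 and 0.071 in 7 of the 10 fits that left out 1 cyst and could test it. The same WT cyst, WT replicate 3, was the only WT rST cyst with reads of the seminal fluid genes described below.

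**Figure D1:**
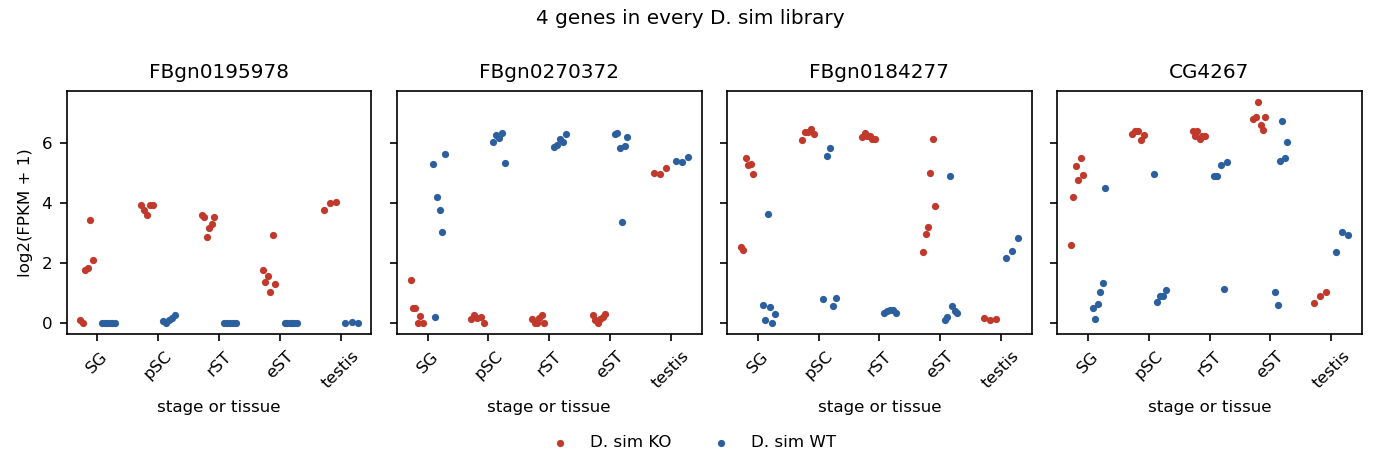
FPKM of 4 genes in every D. sim library (vertical axis, log2(FPKM + 1); horizontal axis, stage of the cyst or whole testis; each point is a library, KO in red left of WT in blue). FBgn0195978 was present in KO and not in WT rST cysts and testes, FBgn0270372 was almost missing from KO cysts but present in KO testes, and FBgn0184277 and CG4267 (not called at rST) lay higher in KO rST cysts and lower in KO testes than in WT.

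Beyond identifiers, 17 genes could be given the name of their D. melanogaster ortholog, because the mean FPKM values that the study lists for named genes match a single D. simulans gene each. The study picked these genes on these samples, so their direction is not independent evidence. Of the 17, 7 rose in KO, 1 fell and 9 were not called, where 5.12% of all genes tested rose and 7.67% fell, and their median log2 fold change was 1.45, against -0.05 over all genes tested.

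**Figure D2:**
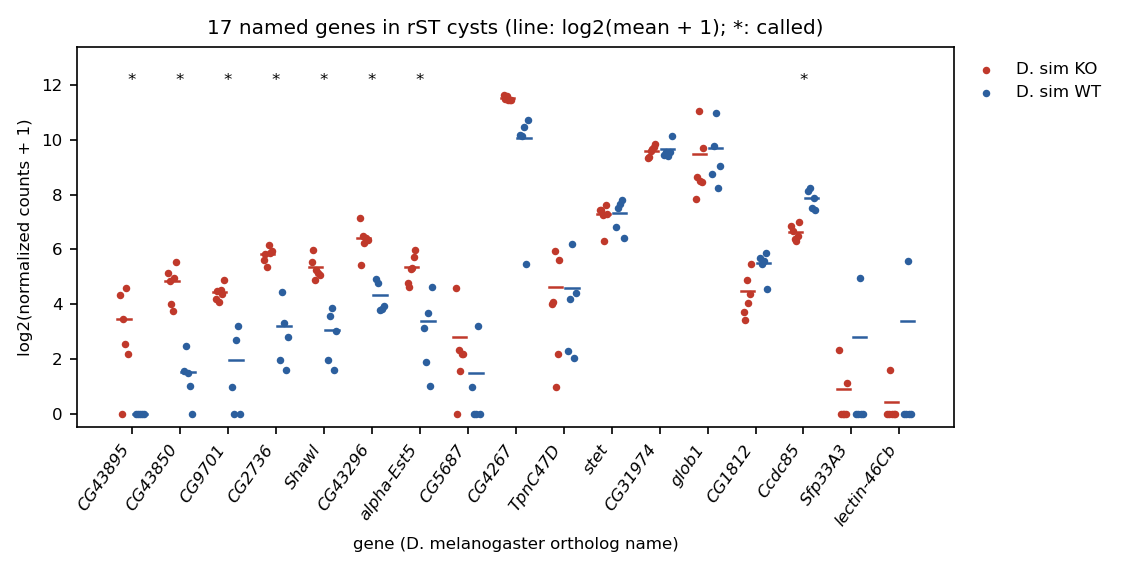
Normalized counts of the 17 named genes in each rST cyst (vertical axis, log2(normalized counts + 1); red, 6 KO cysts; blue, 5 WT cysts; lines, the log2 of the mean plus 1; stars, genes called). All KO cysts lay above all WT cysts in 6 genes, of which CG4267 was not called, and below all WT cysts in 1, Ccdc85.

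Among the genes that rose, CG43895 (3L) was read in 5 of 6 KO cysts, with 0, 7.4 and 23.1 normalized counts at the lowest, median and highest, and in none of the WT cysts. It was at least 17.1-fold higher in KO (adjusted p = 0.013 by edgeR's quasi-likelihood test), and it was called higher at pSC, at eST and in testes too. CG43850 (2L) had 12.6, 29.0 and 45.1 normalized counts in KO cysts, against 1.91, 4.52, 1.81, 1.02 and 0 in WT cysts. The groups did not overlap (log2 fold change 3.74 ± 0.57, adjusted p = 0.00027), and the rise in testes was as large (3.72). CG9701 (3L) had 16.0, 20.5 and 28.5 in KO cysts, against 0.956, 0, 5.42, 8.16 and 0 in WT cysts (2.77 ± 0.68, adjusted p = 0.0092), again with no overlap.

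CG2736, a member of the CD36 family of scavenger receptors, had 39.9, 56.7 and 71.5 normalized counts in KO cysts, against 2.87, 20.8, 9.04, 2.04 and 6.01 in WT cysts. Every KO cyst was higher than every WT cyst (2.73 ± 0.46, adjusted p = 0.00068), while testes gave a log2 fold change of -0.36 that was not called. Shawl, a voltage-gated potassium channel of the Shaw type, had 28.9, 35.7 and 62.1 in KO cysts, against 2.87, 10.8, 13.6, 2.04 and 7.21 in WT cysts (2.42 ± 0.43, adjusted p = 0.001). Its groups did not overlap either, and it was called higher in testes. CG43296 (2R) had 41.7, 82.5 and 141 in KO cysts, against 29.6, 26.2, 12.7, 13.3 and 14.4 in WT cysts (2.14 ± 0.34, adjusted p = 0.00036). The carboxylesterase alpha-Est5 had 23.5, 38.3 and 61.8 in KO cysts, against 7.65, 2.71, 11.7, 1.02 and 24.0 in WT cysts (2.11 ± 0.56, adjusted p = 0.015), where WT replicate 5 reached into the range of the KO cysts. The calls of CG9701, CG2736, Shawl and alpha-Est5 were lost in the fit over all 45 cysts, with adjusted p of 0.27, 0.063, 0.15 and 0.21.

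Ccdc85, which encodes a coiled-coil protein, was the single named gene that fell. It had 79.2, 94.9 and 128 normalized counts at the lowest, median and highest KO cyst, against 283, 306, 182, 236 and 175 in the WT cysts. The groups did not overlap (log2 fold change -1.26 ± 0.19, adjusted p = 0.00026). Ccdc85 gave values of 0.04 in testes and -0.06 at pSC, neither of them called, and was called lower at eST (-2.26). Its KO effect was not shown to differ between rST and pSC (difference -1.24 ± 0.33, SE, adjusted p = 0.12 by edgeR's interaction test).

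CG4267 was the most abundant named gene that separated the genotypes without being called. KO cysts had 2830, 2890 and 3230 normalized counts at the lowest, median and highest, and WT cysts had 1160, 1120, 1420, 42.8 and 1690. All KO cysts were higher than all WT cysts, and WT replicate 4 stood far below the rest (log2 fold change 1.45 ± 0.53, adjusted p = 0.065). Without that cyst the log2 fold change was 1.17 and the adjusted p 1.2e-05. With the position covariate or without WT replicate 5 the values were 1.70 and 1.67, each with an adjusted p of 0.049. At eST, KO cysts lay between 86.2 and 167 FPKM and WT cysts between 0.503 and 107 FPKM, and the gene was not called. At pSC, where KO cysts lay between 67.9 and 84.3 FPKM and WT cysts between 0.637 and 30.1 FPKM, it was called higher in KO (3.82, adjusted p = 0.026). In testes CG4267 was lower in KO, at 0.823 ± 0.236 FPKM against 6.01 ± 1.62 FPKM in WT (SD, n = 3 each; log2 fold change of the counts -2.99, adjusted p = 4.2e-07), opposite to the cysts.

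CG1812 (X) had 9.63, 17.5 and 42.8 normalized counts in KO cysts, against 50.7, 43.4, 47.0, 58.1 and 22.8 in WT cysts, with overlap (-1.06 ± 0.38, adjusted p = 0.057). The globin gene glob1 (231 to 2130 in KO cysts and 304 to 2050 in WT cysts), the rhomboid protease gene stet (79.2 to 194 and 85.3 to 222), CG31974 (656 to 917 and 688 to 1140) and CG5687 (0 to 23.2 and 0 to 8.16) overlapped broadly and were not called.

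Few markers of other cell types could be looked up by name. The muscle gene TpnC47D, a troponin C, was read in all cysts, at 0.966 to 60.8 normalized counts in KO and 3.06 to 72.3 in WT, and was not called. Its mean in picked SG cysts was 23.8 FPKM in KO and 31.8 FPKM in WT, against 3.93 and 3.3 FPKM in whole testes. From which cells its reads came was not tested. The accessory gland genes Sfp33A3 and lectin-46Cb, which encode seminal fluid proteins, summed to 0 in 3 KO cysts and to at most 4.04 in the others, and to 0 in 4 WT cysts and 76.8 in WT replicate 3. Neither was called, and no other gene of the marker lists had a name here. Without WT replicate 3, 667 genes rose and 860 fell, and the part of such RNA in single genes was not tested.

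The genes called were unevenly spread over the genome. On the X, which also carries mir-983, 122 of 1796 genes tested were called (6.79%, 53 risen and 69 fallen), against 1384 of 9937 (13.9%) on the arms of chromosomes 2 and 3. The X share was also the lower at pSC (9.1% against 14%), in testes (6.09% against 11.1%) and at eST (2.12% against 5.12%). Within the X, 17 of 690 genes (2.46%) were called in the first 8 Mb and 105 of 1106 (9.49%) beyond. On chromosome 4, 7 of 81 genes fell (8.64%) and none rose, where 7.67% of all genes tested fell and 5.12% rose. The share that fell there was thus near that of all genes. In the fit over all 45 cysts the shares were 3.11% on the X and 7.94% on chromosomes 2 and 3.

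On a finer scale, the share called in windows of 1 Mb with at least 20 tested genes ranged between 0% and 35.1%, with a median of 11.1% over 114 windows. Under 5% were called in 28 windows and over 20% in 23. The richest window was 3L 11 to 12 Mb, where 46 of 131 genes were called and 39 of these fell. In 3R 7 to 8 Mb 35 of 106 genes were called, 21 risen and 14 fallen, and in 2R 16 to 17 Mb 29 of 92. By contrast, none of 104 genes at 3R 12 to 13 Mb and none of 91 at 3R 26 to 27 Mb was called. The longest run of tested genes without a call spanned 229 genes over 2.28 Mb of 3R (11261823 to 13539325). Of those 229 genes, 7 of 228 tested at pSC were called there, 1 of 218 at eST, none of 217 at SG and 10 of 224 in testes. Genes not tested at rST are left out of these counts. With such genes included, 9 of 122 genes at 3R 12 to 13 Mb rose and 4 fell in testes, and 1 of 112 rose at SG. Window size and limits were set after the values had been seen, and no test was made of them.

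**Figure D3:**
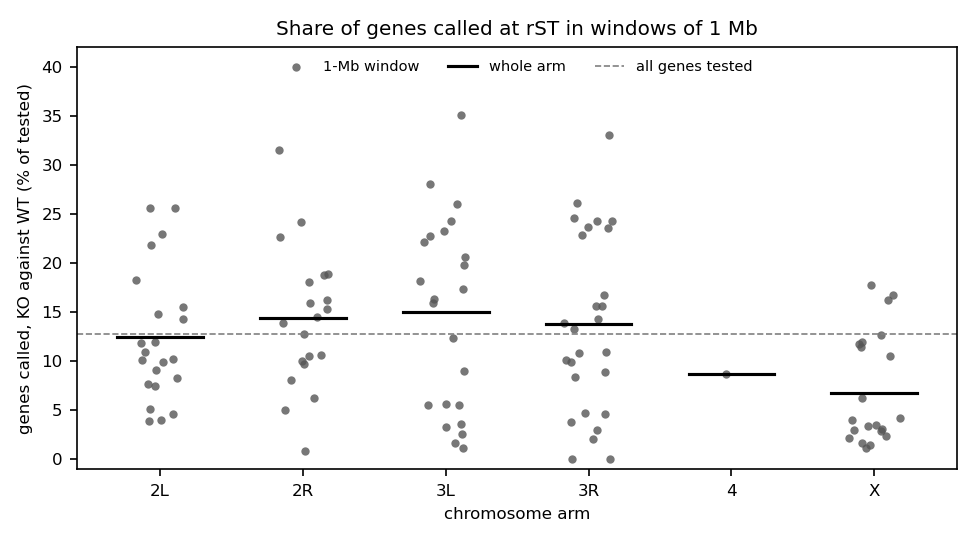
Share of tested genes called between KO and WT rST cysts in windows of 1 Mb (points; vertical axis in percent), by chromosome arm (horizontal axis). Bars give the whole arm and the dashed line all genes tested (12.8%). Windows on 2L, 2R, 3L and 3R reached from 5% or less to over 25%, while most windows of the X lay below the dashed line.

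The map of rich and poor windows was much the same at the neighbouring stages. Over the 114 windows, the share called at rST and that at pSC had a Spearman's rho of 0.87, with 0.79 for eST, 0.52 for SG and 0.40 for testes. These come from the same lines and genes but from different libraries, and are given as a description. In the 20 windows richest at rST, 25.8% of genes were called at rST, 23.8% at pSC, 9.98% at eST and 15.3% in testes. In the 20 poorest the shares were 2.08%, 4.23%, 0.809% and 8.81%.

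Genes next to a called gene were called more often in either direction than genes next to an uncalled one. The next tested gene after one that rose had itself risen in 12.4% and fallen in 10.7% of 607 pairs. After a gene that fell, the next had risen in 7.4% and fallen in 15.7% of 906 pairs. After a gene that was not called, 4.52% had risen and 6.79% had fallen. Among pairs in which neither gene overlaps another, the next gene had risen in 12.1% and fallen in 10.9% after a risen gene, 7.24% and 14.5% after a fallen gene, and 4.5% and 6.8% after an uncalled gene. These shares are a description, with no test.

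Most of the genes called in round spermatids were also called in spermatocytes. Of the 1530 genes, 921 were called in the same direction at pSC (60.2% of the rST list and 57.2% of the 1609 genes called at pSC, themselves 13.2% of those tested there) and none in the opposite direction. At eST 425 were called in the same direction, 27.8% of the rST list and 79% of the 538 called there (4.63% of those tested), and 2 in the opposite one. Counting genes with and without a call there, the sign was shared by 94.8% of the risen and 97.3% of the fallen genes tested at pSC, and by 91.9% and 91.8% at eST. SG cysts, with 96 genes called (0.777% of those tested), shared 65. In all, 348 genes were called in the same direction at rST, pSC and eST, and 531 at rST and at neither of the others.

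Testes, which are separate samples of both lines, gave another picture. Of 1285 genes called there (10.2% of those tested), 426 were called in the same direction as at rST (27.8% of the rST list and 33.2% of the testis list) and 47 in the opposite one. The sign was shared by 74.5% of genes that rose at rST and by 70.3% of those that fell. The median log2 fold changes of these genes were 1.92 and -1.91 at rST, against 0.55 and -0.38 in testes. In whole testes, fewer cells of a type and less RNA per cell cannot be told apart, and the males were older and the RNA not amplified in the same way.

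**Figure D4:**
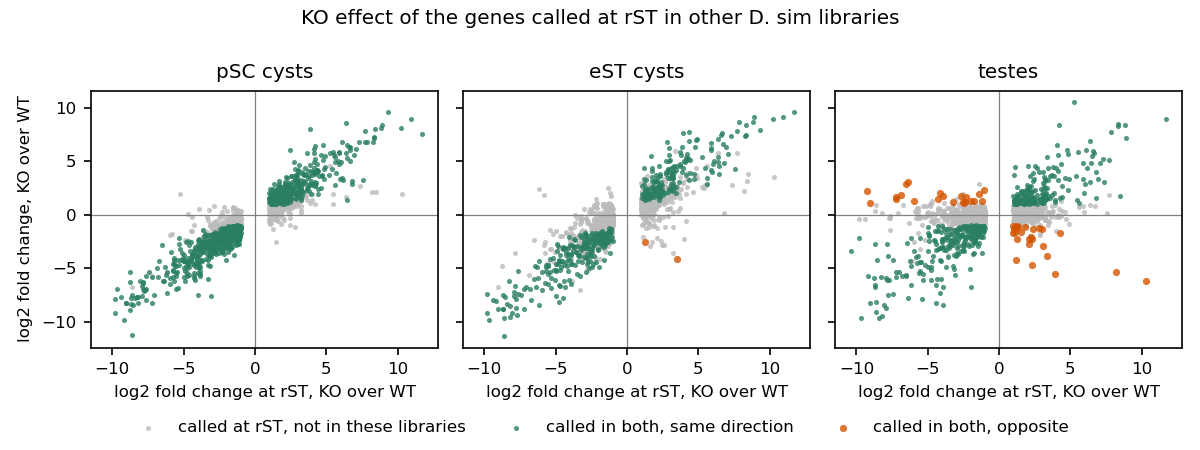
Log2 fold change (KO over WT) of the genes called at rST (horizontal axes) against the same in pSC cysts, eST cysts and testes (vertical axes; each point is a gene). None of the genes called at both rST and pSC had opposite directions, 2 did at eST and 47 in testes.

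Sign agreement with testes varied by region. Among 71 windows of 1 Mb with at least 8 genes called at rST and tested in testes, the share with the same sign ranged between 15.4% and 100%, with a median of 75%. It was under 40% in 8 windows and at least 90% in 17. At 2L 2 to 3 Mb, where CG4267 lies, 2 of 13 genes had the same sign, at 3L 15 to 16 Mb 4 of 21, at 3R 25 to 26 Mb 4 of 17 and at 2L 10 to 11 Mb 4 of 16. At 2R 9 to 10 Mb and at 3L 17 to 18 Mb all 20 genes had the same sign. These windows were picked for their values and no test was made.

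FBgn0184277, at 3L 15235158 to 15237053, lies in a window of opposite sign and was called in opposite directions at rST and in testes. KO rST cysts had 2920, 3100 and 3480 normalized counts at the lowest, median and highest, and WT cysts 10.5, 13.6, 9.94, 11.2 and 7.21. The genotypes were far apart and each was uniform (log2 fold change 8.20 ± 0.13, adjusted p = 3.5e-13). In testes the order was reversed, with 0.0909 ± 0.0264 FPKM in KO and 4.61 ± 1.36 FPKM in WT (SD, n = 3 each; log2 fold change of the counts -5.34, adjusted p = 3.9e-08). At pSC, KO cysts lay between 68.1 and 87.6 FPKM, and WT cysts were split, with 46.4 and 55.9 FPKM in replicates 2 and 3 and 0.463 to 0.782 FPKM in the other 3. A WT cyst also stood apart at SG (11.5 FPKM, the others at most 0.503) and at eST (29.2 FPKM, the others at most 0.482).

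Whether the KO effect itself differed between stages was tested as an interaction in 1 fit over both stages. Between rST and pSC, 55 of 12392 genes (0.444%) differed at an FDR under 0.05 by edgeR's quasi-likelihood test, 34 with a higher log2 fold change at rST and 21 with a lower one, and 2178 genes had an unadjusted p under 0.05. Between rST and eST, 25 of 12263 genes (0.204%) differed, 12 higher and 13 lower, with 791 genes at an unadjusted p under 0.05. So most genes called at rST and not at another stage are not shown to differ between the stages. Of the 1530 genes called at rST, 43 were among the 55 and 17 among the 25.

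These counts depended on single cysts. Without WT replicate 4 of pSC, 1254 genes differed between rST and pSC, and without WT replicate 2 of pSC 93 did, while leaving out any other cyst gave 24 to 71. Without any 1 of the 11 rST cysts, 0 to 8 genes differed between rST and eST by edgeR's test. Over the 10 fits that called none, which include 1 without a KO eST cyst, 675 to 714 genes had an unadjusted p under 0.05. DESeq2 called 220 and 112 genes on all cysts.

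The largest differences between stages included genes nearly silent at rST. FBgn0184277 had a KO effect 6.02 ± 1.31 higher on the log2 scale at rST than at pSC (SE, adjusted p = 0.037 by edgeR), and WT cysts of pSC were split as given above. FBgn0190215 (3R 14814163 to 14816274) had 4.04 to 11 normalized counts in KO rST cysts and 1.02 to 6.33 in WT rST cysts, which overlapped. Its effect was 4.85 ± 1.08 higher at rST than at pSC (adjusted p = 0.045), where it was called lower in KO (-3.98). FBgn0190777 (3R 6293347 to 6295515) had 2.14 to 12.0 normalized counts in KO and 0 to 5.42 in WT rST cysts, and an effect 10.00 ± 1.96 higher than at eST (adjusted p = 0.033). Its FPKM at eST was 0 to 0.514 in KO and 0.4 to 114 in WT cysts, and it was lower in KO testes as well. FBgn0187514 (X 13285403 to 13286180) had 0 to 23.8 normalized counts in KO and 0 to 2.4 in WT rST cysts, and an effect 9.80 ± 2.08 higher than at eST, with an adjusted p just under 0.05.

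No difference of stage between KO and WT cysts was detected. A cyst's position was scored by projecting its log2(CPM + 1) values on the line that joins the pSC mean (0) and the eST mean (1). KO rST cysts scored 0.209, 0.231 and 0.336 at the lowest, median and highest, and WT rST cysts 0.339, 0.263, 0.252, 0.236 and 0.395. The ranges overlapped, and the means of 0.258 ± 0.058 in KO (SD, n = 6) and 0.297 ± 0.068 in WT (SD, n = 5) differed by -0.04 (two-sided exact permutation test over 462 splits, p = 0.329). This p does not show that the stages were equal. With the position as a covariate, 1553 genes were called, 1432 of them among the 1530.

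**Figure D5:**
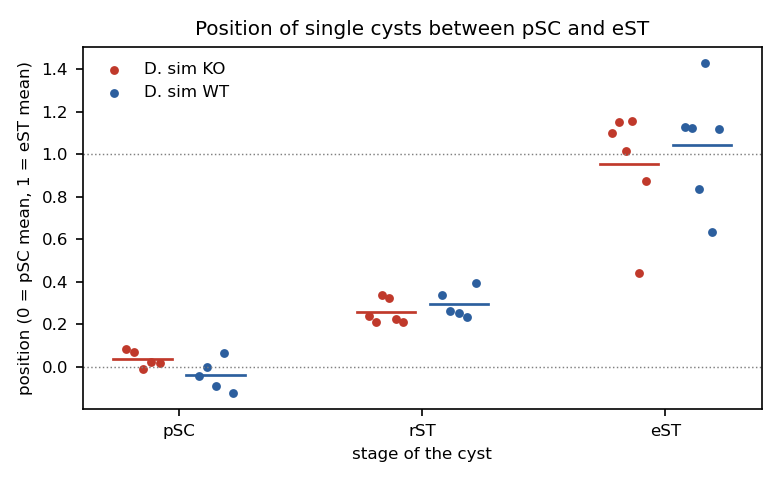
Position of each D. sim cyst between the pSC mean (0) and the eST mean (1) (vertical axis), by stage (horizontal axis; red, KO; blue, WT; lines, means). The rST cysts of both genotypes lay between 0.209 and 0.395, apart from pSC (-0.121 to 0.085) and eST (0.44 to 1.426).

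Genes whose level was highest in spermatocytes were called most often. By the stage with the highest mean outside rST, 16.8% of 3978 genes that peaked at pSC were called (7.24% risen and 9.6% fallen), against 10.8% of 6236 that peaked at SG and 10.8% of 1748 that peaked at eST. The stages were assigned from D. sim cysts that do not enter the rST comparison.

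Single cysts stood apart at some loci. Among 447 genes whose genotype medians differed by more than 2 on the log2 scale with a higher median over 50 normalized counts, a KO cyst was nearer to the WT median in 4 to 17 genes and a WT cyst nearer to the KO median in 8 to 32. KO replicate 2 was nearer to the WT median at 11 of 12 such genes on 2L between 17 and 20 Mb, and the other 5 KO cysts at 0 or 1 of them. WT replicate 3 had the most such genes, 32. Without KO replicate 2, 1436 genes were called, 1380 of them among the 1530. These limits were chosen after the values had been seen.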

How the data were processed

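RNA-seq of 6 KO and 5 WT rST cysts was analysed beside the other D. sim libraries. The authors trimmed reads with Trimmomatic 0.36, mapped them with HISAT2 2.2.0 to the D. simulans reference, and deposited raw counts per gene from HTSeq 0.6.0, made without strand, so overlapping genes are uncertain. The authors also deposited FPKM per gene from StringTie 2.1.4, which were used only to show levels across stages. The study had left out a cyst as an outlier, which is not analysed here.

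For TMM normalization and the two-sided quasi-likelihood test, edgeR 4.0.16 was run in R 4.3.3 beside limma 3.58.1, with 1 fit per stage, and adjusted by Benjamini-Hochberg over all genes tested (mean above 5 in KO or in WT). Normalized counts are counts divided by the effective library size, which is the total of the library times its TMM factor. They were then multiplied by the mean effective size of the libraries in the fit. Differences between stages were tested as interactions. Fold limits set a genotype without reads to 3 counts over the group. Scores and figures were made in Python 3.11.15 (matplotlib 3.10.9, numpy 2.4.6, scipy 1.17.1, pandas 2.3.3). On simulated data, edgeR recovered 100% of 200 genes changed by 2 on the log2 scale at rST (11829 genes tested), and 91% and 92% in the comparisons with pSC and eST (12324 and 12115 genes). The changed genes had means above 50 counts, and the spread followed the same formula at every cyst stage. These shares therefore do not hold for genes with fewer counts or for cysts that vary more. Counting error alone is covered by depth, and PCR copies are not independent molecules.

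The members and lists were chosen with earlier results of these data known. Named genes are those with the largest changes without overlap and a mean of at least 50 in the higher genotype, the most abundant called ones, the 2 largest of each interaction, and genes of the study's named lists that pair with 1 D. simulans gene at 4 significant digits of mean FPKM. At most 2 identifiers without a name are printed per direction and comparison. None of the 15266 identifiers was paired with a name in the tables used, so lists of stage, cyst cell, fat body, protamine, sperm tail, nebenkern, individualization, small RNA machinery and meiotic arrest genes had 0 members with values. Alternatives were DESeq2 1.42.0, its size factors, other filters, a replicate block, the cyst position as a covariate, a fit over all stages, and leaving out each replicate.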

Additional observations from a re-analysis of the deposited data

Results flagged for a closer look

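By edgeR's interaction test the KO effect at rST differed from that at pSC in 55 genes and from that at eST in 25. The 2 genes with the largest difference in each comparison are given here. The difference on the log2 scale was 6.02 for FBgn0184277 and 4.85 for FBgn0190215 against pSC, and 10.00 for FBgn0190777 and 9.80 for FBgn0187514 against eST. Leaving out 1 cyst at a time ended the call in 18 of 21 fits for each of the genes set against pSC, in 15 of 23 for FBgn0190777 and in 21 of 23 for FBgn0187514.

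A cyst far from the others of its genotype was found in 12 of 54 groups examined. Chance flags about 1 in 20 where values are normally distributed, and these counts were not put on a log scale. Some of the genes were also picked for large changes, so 12 of 54 is not shown to exceed chance. The value given is the gap to the nearest cyst over the range of the group. The highest KO cyst stood apart for FBgn0187514 (0.888), CG5687 (0.828), glob1 (0.685), Sfp33A3 (0.706) and lectin-46Cb (1), and the lowest KO cyst for stet (0.639). The highest WT cyst stood apart for FBgn0193574 (0.994), CG5687 (0.883), TpnC47D (0.749), CG31974 (0.832), Sfp33A3 (1) and lectin-46Cb (1). In FBgn0193574, TpnC47D, Sfp33A3 and lectin-46Cb it was WT replicate 3. For Sfp33A3 and lectin-46Cb, where most cysts have no read, a single cyst with reads is enough to give such a value.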

How the results depend on the processing

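The count of 1530 genes became 858 in the fit over all 45 D. sim cysts and 1012 with a minimum of 50 normalized counts. It was 1555 with DESeq2, 1518 with its size factors, 1563 without a filter and 1553 with the position covariate, and 1424 to 1610 without 1 replicate. With the replicate block 1282 genes were called. No clear pairing by replicate number was seen. The correlations of same-numbered cysts lay between -0.09 and 0.17, and 2 of 5 correlated best with their own number. So few values cannot exclude that cysts of the same number share a source. The 426 genes shared with testes became 252 with the minimum of 50, and 394 to 439 without 1 replicate. The 55 genes that differed between rST and pSC became 220 with DESeq2 and 24 to 1254 without 1 replicate. The 25 that differed between rST and eST became 112 with DESeq2 and 0 to 54 without 1 replicate. The difference in position was -0.055 to -0.015 without 1 replicate.

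Among the named genes, the only ones followed in this way, signs turned only in those that were not called. TpnC47D gave 0.02, and -0.33 with the replicate block and -0.51 to 1.13 without 1 replicate (-0.51, -0.26, -0.25, -0.05, -0.23 and -0.03 where it turned). Stet gave -0.05, and 0.08, 0.02, 0.07 and 0.12 where it turned without 1 replicate (-0.20 to 0.12 over all). CG31974 gave -0.06, and 0.03 with the position covariate and 0.11 without WT replicate 5 (-0.10 to 0.11 without 1 replicate). Glob1 gave -0.23, and 0.44 without WT replicate 3 (-0.94 to 0.44 without 1 replicate). CG1812 passed the threshold with DESeq2 (-1.04, adjusted p = 0.031), the replicate block (-1.39, adjusted p = 0.042), and without KO replicate 6 (-1.34) or WT replicate 5 (-1.21). CG4267 did so with the position covariate (1.70, adjusted p = 0.049) and without WT replicate 4 (1.17) or WT replicate 5 (1.67), and CG5687 without WT replicate 4 (4.09, adjusted p = 0.049) and lectin-46Cb in the fit over all 45 cysts (-4.37, adjusted p = 0.025). With the minimum of 50, 517 of the genes called were no longer tested. Other causes were not tested.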

Other observations

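In KO testes FBgn0193574, Sfp33A3 and lectin-46Cb stayed at or under 0.629 FPKM. In WT testis replicate 3 they had 11.3, 2.1 and 4.66 FPKM, while the highest values in the other 2 WT testis libraries were 0.572, 0 and 0.354. WT rST replicate 3, the cyst that stood out in these genes, is a separate library, and the likeness was noticed after the values had been seen and was not tested. At SG, Sfp33A3 was at 1.92 to 6.76 FPKM in KO cysts and 0 to 0.603 in WT cysts. There lectin-46Cb was at 0.436 to 3.02 and 0 to 0.167 FPKM, and FBgn0193574 at 0 to 1.07 and 0.667 to 2.05. None of these genes was called at SG.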
